A study of Homo sapiens with 4 samples.

Results

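Cholesterol and fatty acid synthesis genes that SREBP transcription factors switch on were followed in H1299 cells exposed to HgCl2. The set was given by name as 8 genes: HMGCS1, IDI1, FDFT1, SQLE, INSIG1, SREBF2, SCD and FASN. Every transcript that the count table lists for them was taken, 67 of 227368 in all. A count above 0 in any column was found for 16 of these 67, against 39729 in the whole table, and 11 of the 16 passed the filter on low values, a mean FPKM above 1 in at least 1 group, as did 17547 transcripts in all. H1299 is an established human line of non-small cell lung cancer. Cells were cultured for 48 h with 5 μM HgCl2, mercury(II) chloride, or with 0.6% EtOH, the control, and poly-A RNA was sequenced. The concentration for each group is the one in the study's methods, since the treatment label reads alike for all 4 samples. The count table holds 2 columns for each group, called EtOH replicates 1 and 2 and HgCl2 replicates 1 and 2, with total counts between 4720978 and 5053120. Fewer transcripts had a count in HgCl2, 25432 and 25531, than in EtOH, 33148 and 33106. The part of this in member transcripts with few or no HgCl2 counts was not tested.

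The 2 columns of a group differed by less than counting noise. The variance of their difference was 0.504 of that of Poisson counting for EtOH, over 12382 transcripts with at least 20 counts, and 0.516 for HgCl2, while EtOH replicate 1 and HgCl2 replicate 1 differed by 31.8 times counting noise. Each group was therefore counted as 1 sample, although the study describes independent replicates. With 1 sample a group, no test of the conditions was possible, and the edgeR calls given below compare the libraries only. Differences are given as log2 ratios of HgCl2 to EtOH mean counts after TMM scaling. Their exact 95% Clopper-Pearson intervals cover counting error only. In bulk RNA, fewer cells that hold a transcript and less of it per cell cannot be told apart.

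Cells sense sterols at the endoplasmic reticulum. INSIG1 holds the SREBP precursors there when sterol is plentiful. When sterol is scarce they move to the Golgi, are cut by proteases, and the released part enters the nucleus and switches on genes with sterol elements. SREBF2 encodes the SREBP that mainly drives cholesterol synthesis. HMGCS1 makes HMG-CoA, IDI1 isomerises isopentenyl diphosphate, FDFT1 makes squalene and SQLE oxidises it. FASN makes palmitate, and SCD introduces the double bond of oleate.

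Counts in this table are per transcript, and they went almost wholly to transcripts with bases of their own. Of the 67 listed member transcripts, 17 have no base that other listed transcripts leave free, and none of these 17 has a count. A further 13 have own bases in runs shorter than 60, and none of these has a count either. Counts were found for 4 of 18 whose longest run has at least 60 but fewer than 150 bases and for 12 of 19 with a run of at least 150 bases. Among all annotated transcripts, 1374 of 80430 without an own base had a count. Reads are therefore taken to be counted where a single listed transcript covers them, which the sources used here do not state. IDI1-201, FDFT1-201, INSIG1-201, SREBF2-201 and FASN-201, the transcripts that Ensembl names as canonical for their genes, stood at 0 in every column with between 0 and 16 own bases each, so their 0 is not read as missing expression. The canonical transcripts of the other 3 genes carried counts. SCD-201 is the single listed transcript of its gene, with 5245 of 5245 bases its own. SQLE-201 has 1050 of 2962, nearly all in its first exon. HMGCS1-201 has 131 of 5350, at the 3′ end of its last exon.

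**Figure D1:**
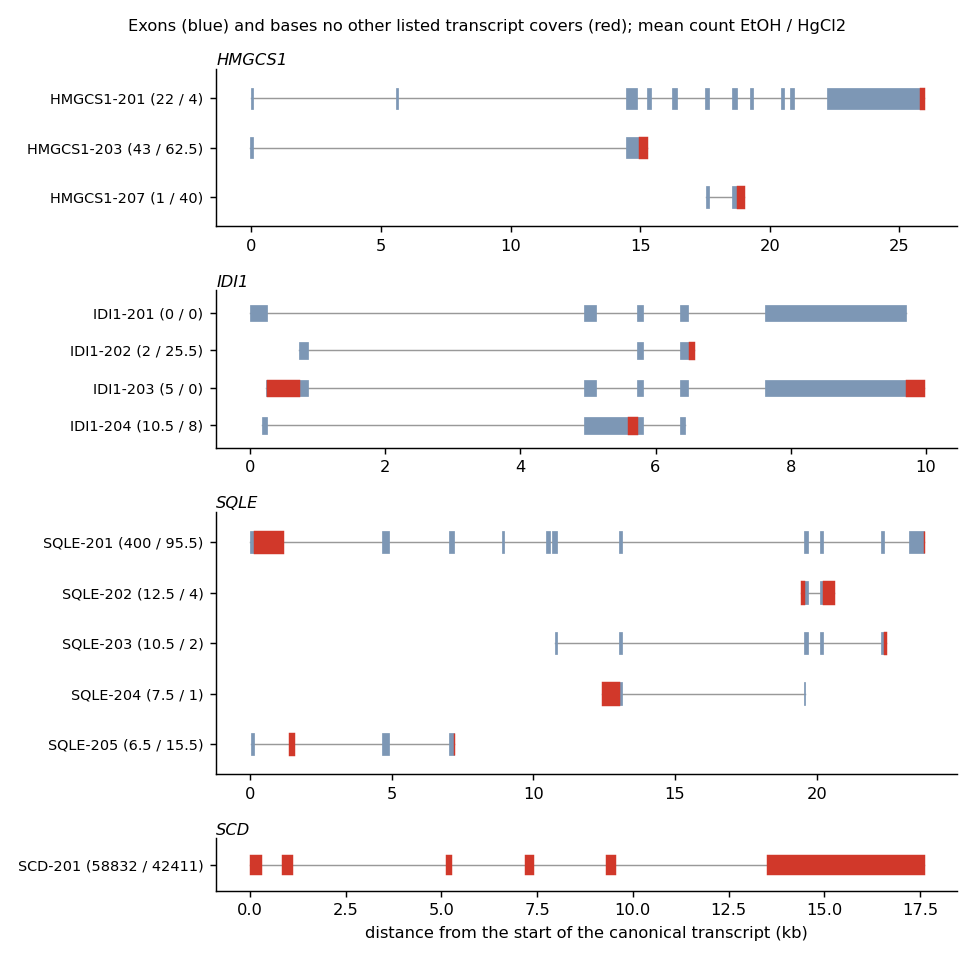
Exons (blue) and own bases, those no other listed transcript covers (red), of the counted transcripts of HMGCS1, IDI1, SQLE and SCD and of the uncounted IDI1-201, along the distance in kb from the start of the canonical transcript, with the mean counts in EtOH and HgCl2 beside each name. Own bases of SCD-201, SQLE-201 and HMGCS1-201 lie in exons of the canonical transcript, and those of the others lie in its introns or, for part of IDI1-203, beyond its ends.

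In the other 13 counted member transcripts, most own bases lie in introns of the canonical transcript. The stretches of HMGCS1-207 and IDI1-202 are shown because these are the member transcripts with the highest ratios of HgCl2 to EtOH counts. That of HMGCS1-207 is chr5:43294413-43294690 (GRCh38, minus strand), 278 bases of intron 7 of the 10 introns of HMGCS1-201, which is 528 bases long. That of IDI1-202 is chr10:1042549-1042631 (GRCh38, minus strand), 83 bases of intron 4 of the 4 introns of IDI1-201, which is 1127 bases long. Each begins at the 5′ splice site of that intron, whose first bases are in capitals, and runs on unspliced. The GC content was 36.0% and 27.7%.
HMGCS1-207: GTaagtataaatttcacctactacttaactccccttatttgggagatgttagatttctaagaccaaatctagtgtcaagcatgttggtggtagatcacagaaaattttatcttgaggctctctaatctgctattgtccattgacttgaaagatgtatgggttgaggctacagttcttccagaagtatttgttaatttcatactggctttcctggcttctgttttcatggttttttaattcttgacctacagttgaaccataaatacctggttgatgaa
IDI1-202: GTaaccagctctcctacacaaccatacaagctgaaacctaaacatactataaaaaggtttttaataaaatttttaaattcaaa
HMGCS1-207 (ENST00000514610) is annotated as a retained intron, a transcript class with no reading frame assigned. IDI1-202 (ENST00000427898) is annotated as protein coding.

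SCD-201 (ENST00000370355, chr10:100347233-100364826) was the most counted member by far. Its counts were 58722 and 58942 in EtOH and 42527 and 42295 in HgCl2. This made 1.16% of all counts in EtOH and 0.898% in HgCl2, and it stood 10th among all transcripts by count in both. Outside the mitochondrial genome its share was 1.55% in EtOH and 1.09% in HgCl2. In FPKM, which divides by length, the columns held 2038, 2046, 1844 and 1834, and the transcript ranked 30th and 34th. The SCD desaturase transcript in HgCl2 was 0.796 of its EtOH level, a log2 ratio of -0.33 (-0.35 to -0.31), which is -0.15 on the deposited FPKM scale. Among the 35 transcripts averaging 10000 counts or more it had the 11th lowest ratio, and their median was 0.02. SCDP1, a processed pseudogene of SCD, had 16 and 25 counts in EtOH and 8 and 8 in HgCl2.

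The squalene epoxidase transcript SQLE-201 (ENST00000265896, chr8:124998505-125022283) was lower in HgCl2. It had 401 and 399 counts in EtOH and 97 and 94 in HgCl2. The log2 ratio was -1.92 (-2.26 to -1.60), or 3.79-fold lower, and the mean FPKM was 24.6 in EtOH and 7.33 in HgCl2. Of the 2712 transcripts averaging 200 counts or more, 2.03% were at least 2-fold lower in HgCl2, and SQLE-201 had the 4th lowest ratio of them.

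The other 4 counted SQLE transcripts had few counts. SQLE-202, a retained intron, had 16 and 9 in EtOH and 5 and 3 in HgCl2, with a log2 ratio of -1.50 (-3.58 to 0.21). SQLE-203 had 12 and 9 in EtOH and 1 and 3 in HgCl2, with a log2 ratio of -2.25 (-5.47 to -0.04). SQLE-204, a retained intron, had 5 and 10 in EtOH and 1 and 1 in HgCl2, with a log2 ratio of -2.76 (-8.25 to 0.16). The intervals of SQLE-202 and SQLE-204 include 0. SQLE-203 and SQLE-204 passed the filter on low values through EtOH alone. SQLE-205 lay the other way, with 4 and 9 counts in EtOH and 14 and 17 in HgCl2 and a log2 ratio of 1.40 (-0.01 to 2.98). Its own bases include 172 at chr8:124999900-125000071 in the first intron of SQLE-201. It made 1.49% (0.506 to 2.96) of the SQLE counts in EtOH and 13.1% (7.95 to 21.1) in HgCl2, while SQLE-201 made 91.5% (88.5 to 94.0) and 80.9% (73.1 to 87.9). Summed over the gene, SQLE had 437 counts in EtOH and 118 in HgCl2, a log2 ratio of -1.75 (-2.05 to -1.45). SQLE-206, which lacks most of the first exon of SQLE-201 and shares its later exons, had no count. The sum rests mostly on that first exon and is not read as a level of all SQLE mRNA.

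In HMGCS1, the gene of HMG-CoA synthase, the coding transcript and the intron-bearing transcripts went opposite ways. HMGCS1-201 (ENST00000325110), the counted coding transcript, had 22 and 22 counts in EtOH and 4 and 4 in HgCl2. Its log2 ratio was -2.32 (-4.31 to -0.76), with mean FPKM of 0.749 and 0.170, under the filter. HMGCS1-207 had 1 and 1 counts in EtOH and 42 and 38 in HgCl2. That is a log2 ratio of 5.47 (2.90 to 10.8), with mean FPKM of 0.328 and 16.4. It passed the filter on low values through the HgCl2 group alone. HMGCS1-203 (ENST00000507004), whose 302 own bases lie at chr5:43298144-43298445 in another intron, had 42 and 44 counts in EtOH and 64 and 61 in HgCl2. The difference was smaller there, with a log2 ratio of 0.68 (0.10 to 1.28) and FPKM of 8.24 and 15.0.

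The make-up of the HMGCS1 counts therefore differed between the samples. HMGCS1-201 made 33.3% (22.2 to 46.0) of them in EtOH and 3.76% (1.04 to 9.38) in HgCl2. HMGCS1-207 made 1.52% (0.0384 to 8.16) and 37.6% (28.5 to 47.7). The share of HMGCS1-203 was 65.2% (52.4 to 76.5) and 58.7% (48.5 to 68.0), with intervals that overlap. Summed over the gene, HMGCS1 had 66 counts in EtOH and 106.5 in HgCl2, a log2 ratio of 0.83 (0.38 to 1.30), the opposite sign to that of HMGCS1-201. The sum is therefore not read as a level of HMGCS1 mRNA.

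In IDI1, the isomerase gene, the 3 counted transcripts differed among themselves, all with own bases outside the canonical exons. IDI1-202 had 3 and 1 counts in EtOH and 23 and 28 in HgCl2, with a log2 ratio of 3.82 (1.82 to 6.94) and mean FPKM of 0.826 and 13.2, so that it too passed the filter through HgCl2 alone. IDI1-203, also protein coding, had 6 and 4 counts in EtOH and 0 and 0 in HgCl2. Its log2 ratio has no lower limit and an upper limit of 0.27, so counting error alone could give these counts without a difference. The retained intron IDI1-204 had 11 and 10 counts in EtOH and 5 and 11 in HgCl2, columns that overlap, with a log2 ratio of -0.25 (-1.78 to 1.22). IDI1-202 made 11.4% (1.38 to 34.7) of the IDI1 counts in EtOH and 76.1% (58.8 to 89.3) in HgCl2. The gene sum was 17.5 counts in EtOH and 33.5 in HgCl2.

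FDFT1, the squalene synthase gene, was counted through 1 of 21 listed transcripts. FDFT1-217 had 6 and 6 counts in EtOH and 0 and 0 in HgCl2. The upper limit of its log2 ratio was -0.09, close to no difference. Its 375 own bases lie at chr8:11807943-11808317.

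The regulators were thinly counted. INSIG1-205, a retained intron of the sterol sensor gene, had 13 and 18 counts in EtOH and 9 and 8 in HgCl2. Its log2 ratio of -0.72 (-2.12 to 0.57) has an interval that includes 0. SREBF2-208, an SREBF2 transcript without a defined coding sequence, had 16 and 10 counts in EtOH and 1 and 1 in HgCl2. Its log2 ratio was -3.56 (-8.97 to -0.82), and with mean FPKM of 0.585 and 0.0563 it lay under the filter. FASN, the fatty acid synthase gene, had 1 count in all, in EtOH replicate 1, on the retained intron FASN-205, and no fold is given. At this depth and with these own bases, a difference in canonical INSIG1, SREBF2 or FASN mRNA was not detectable.

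**Figure D2:**
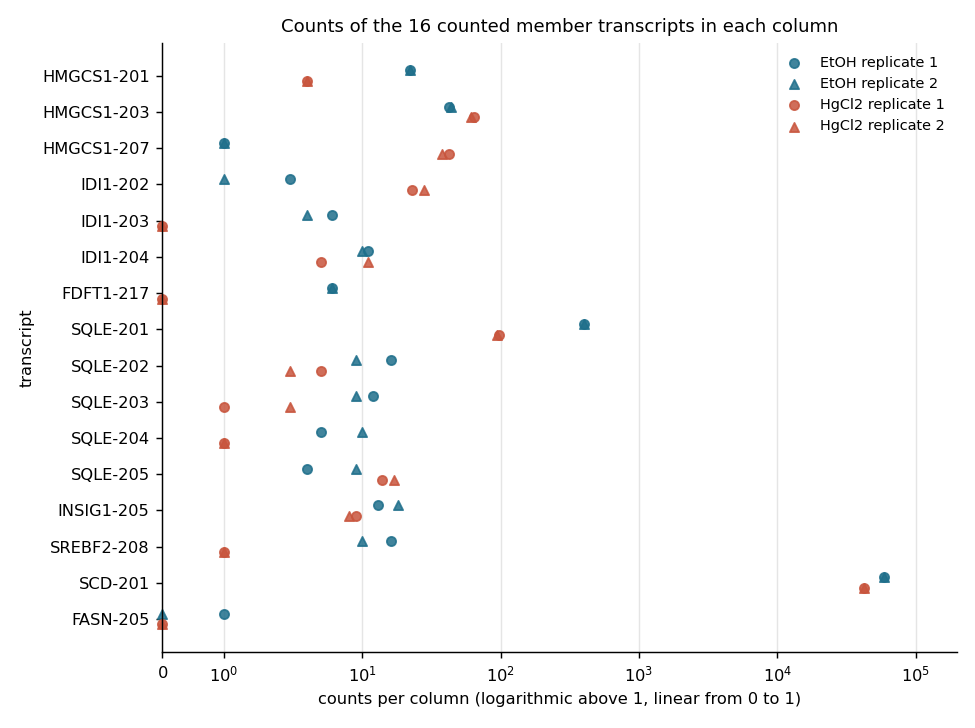
Counts of the 16 counted member transcripts (vertical axis) in each of the 4 columns, on a horizontal axis that is logarithmic above 1 and linear from 0 to 1, with EtOH in blue and HgCl2 in red. SCD-201 lies at 42295 counts or more in every column and all others lie at or under 401, and HMGCS1-207 and IDI1-202 are the transcripts with at most 3 counts in EtOH and at least 23 in HgCl2.

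Levels of different transcripts can be set side by side only per length. Per kb of own bases, SCD-201 had 11217 counts in EtOH and 8086 in HgCl2, and SQLE-201 had 381 and 91.0. HMGCS1-203 had 142 in EtOH and 207 in HgCl2, and HMGCS1-207 had 3.60 and 144. In EtOH the order was SCD-201, SQLE-201, HMGCS1-203 and HMGCS1-207, and in HgCl2 both HMGCS1 transcripts had more per own kb than SQLE-201. HMGCS1-201 and IDI1-202, with 131 and 83 own bases, are not placed in this order, since few transcripts with runs that short were counted at all.

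Sorted by where the own bases lie, SCD-201, SQLE-201 and HMGCS1-201, with own bases in canonical exons, had lower mean counts in HgCl2. Among those with mainly intronic own bases, HMGCS1-203, HMGCS1-207, IDI1-202 and SQLE-205 had higher mean counts in HgCl2 and the rest lower. These counts are not scaled, and column totals were 4722772 and 4720978 in HgCl2 against 5051958 and 5053120 in EtOH. The share of all transcripts on either side was not computed, so no trait of the members is read from this. Without SCD, the exonic counts summed to 422 in EtOH and 99.5 in HgCl2, and the intronic counts to 133.5 and 168. By annotated class, the 7 retained introns summed to 90.5 and 124 counts, a log2 ratio of 0.60 (0.20 to 1.01), and the other 8 transcripts without SCD to 465 and 143.5, a log2 ratio of -1.55 (-1.83 to -1.28). These sums rest mostly on HMGCS1-203 and HMGCS1-207 and on SQLE-201.

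For the counts past 2-fold, a group with fewer than 3 counts was set to 3. Of the 11 tested member transcripts, 3 were at least 2-fold higher in HgCl2 (HMGCS1-207, IDI1-202 and SQLE-205), against 16.9% of all tested transcripts, and 4 at least 2-fold lower (SQLE-201, SQLE-202, SQLE-203 and SQLE-204), against 22.1%. The 4 that were lower are all of 1 gene. HMGCS1-207 and IDI1-202 passed the filter on low values through HgCl2 alone, and SQLE-203 and SQLE-204 through EtOH alone. Passing in this way favours a large ratio, so these tallies are not read as a result about the members. The median log2 ratio of the 11 was -0.33, between -1.92 and 3.88, beside -0.06 over all tested transcripts. On the deposited FPKM scale the median of all tested transcripts was 0.11. Of the 6 tested retained introns, 1 was at least 2-fold higher, against 22.5% of all retained introns, and 2 were at least 2-fold lower, against 22.4%. Low counts make large ratios common. With a mean under 30 counts, 3 of 8 members were at least 2-fold higher and 3 were at least 2-fold lower, against 17.9% and 30.6% of all such transcripts. Of the 2 tested canonical members, SQLE-201 was at least 2-fold lower and SCD-201 was not, against 19.6% of 7606 canonical transcripts.

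With edgeR's quasi-likelihood test, 2 member transcripts passed both thresholds as higher in HgCl2 (HMGCS1-207 and IDI1-202), against 16.6% of all tested, and 3 as lower (SQLE-201, SQLE-203 and SQLE-204), against 24.5%. The thresholds were an adjusted p under 0.05 and a log2 ratio of at least 1 in size. Of the transcripts called, all but SQLE-201 passed the filter on low values only through the group where they were higher, which favours a large ratio. With columns that differ by less than counting noise, these calls compare the libraries and not the conditions. Leaving out any 1 of the 4 columns gave 1 higher and 1 or 2 lower, and requiring at least 10 counts in every column gave 0 higher and 1 lower.

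**Figure D3:**
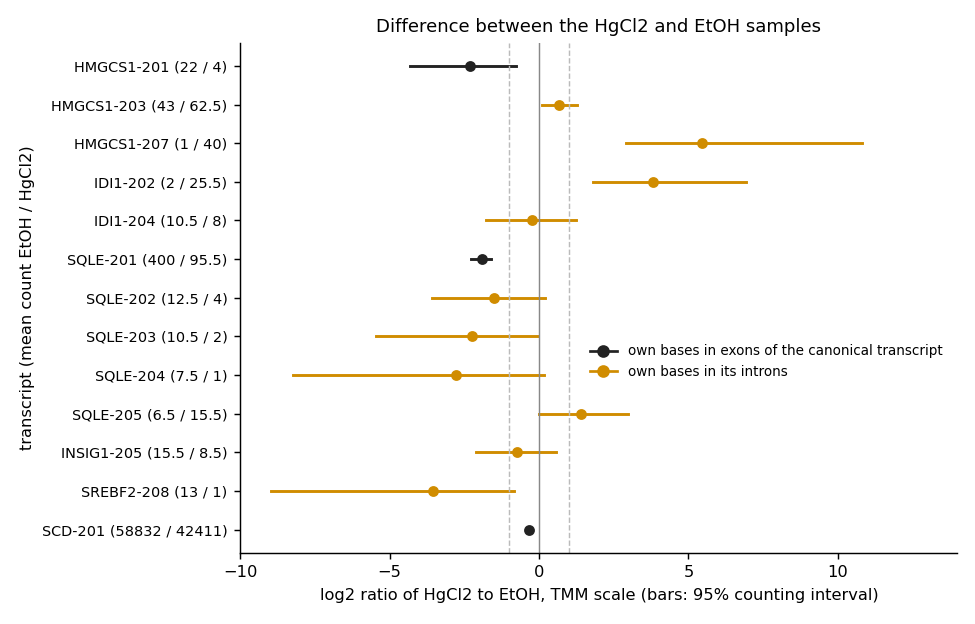
Log2 ratio of HgCl2 to EtOH on the TMM scale (horizontal axis) for the 13 member transcripts counted in both groups, with 95% counting intervals as bars, mean counts beside each name, and dashed lines at 2-fold. Black points have own bases in exons of the canonical transcript and lie below 0. Orange points have theirs in its introns and lie on both sides, from -3.56 to 5.47.

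The rest of the pathway was read from 4 lists with 57 other genes, 50 of them counted, and 60 tested transcripts. Of the 60, 7 were at least 2-fold higher in HgCl2, against 16.9% of all tested transcripts, and 13 at least 2-fold lower, against 22.1%. The median log2 ratio of the 60 was -0.14. Over all 2712 tested transcripts averaging 200 counts or more the median was 0.21. Well-counted list transcripts are to be set beside that value rather than 0. Among 17 canonical transcripts of these lists, 0 were at least 2-fold higher, against 11.4% of all canonical transcripts, and 3 at least 2-fold lower, against 19.6%.

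Among the 17 other cholesterol synthesis genes, 17 transcripts were tested, of which 3 were at least 2-fold higher, against 16.9% of all tested transcripts, and 7 at least 2-fold lower, against 22.1%, with a median of -0.73. ACAT2-201, for the thiolase that precedes HMGCS1, had 74 and 68 counts in EtOH and 24 and 29 in HgCl2, with a log2 ratio of -1.28 (-1.98 to -0.62), although it has no own base in the annotation used. SC5D-201, for a late desaturase of the pathway, was slightly higher, with mean counts of 249 and 298.5 and a log2 ratio of 0.41 (0.16 to 0.65).

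Sterol sensing and SREBP processing, with 11 genes, had 18 tested transcripts, 3 at least 2-fold higher (16.9% over all) and 1 at least 2-fold lower (22.1% over all), with a median of 0.19. MBTPS2 encodes the site-2 protease that releases SREBP from the membrane. MBTPS2-202 averaged 1670 counts in EtOH and 2258 in HgCl2, a log2 ratio of 0.58 (0.49 to 0.67), and MBTPS2-201 had 42.5 and 95.5, a log2 ratio of 1.31 (0.78 to 1.87). The ubiquitin ligases of the endoplasmic reticulum lay on the same side, at 0.32 (0.25 to 0.39) for RNF139-201 and 0.60 (0.46 to 0.74) for MARCHF6-201. The median over all transcripts averaging 200 counts or more was itself above 0, at 0.21.

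Sterol uptake and handling, with 12 genes, had 8 tested transcripts, 0 at least 2-fold higher (16.9% over all) and 1 at least 2-fold lower (22.1% over all), with a median of -0.51. STARD4-201, for a sterol transfer protein, had mean counts of 917 and 630, a log2 ratio of -0.40 (-0.55 to -0.25). ABCA1-202, for the cholesterol exporter, had 421 and 560.5, a log2 ratio of 0.56 (0.37 to 0.74), while NPC1-201, for lysosomal cholesterol export, had an interval that includes 0, at 0.08 (-0.22 to 0.38).

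Among the 17 other fatty acid genes, 17 transcripts were tested, 1 at least 2-fold higher (16.9% over all) and 4 at least 2-fold lower (22.1% over all), with a median of -0.19. The most counted ones differed little. FADS1-201, for a desaturase of polyunsaturated fatty acids, had a log2 ratio of -0.10 (-0.18 to -0.01), ME1-201, for malic enzyme, 0.11 (0.02 to 0.21), and ACSL3-201, for a long-chain acyl-CoA synthetase, 0.35 (0.25 to 0.45). ACSS2-207, a retained intron of the acetyl-CoA synthetase gene, had 9 and 9 counts in EtOH and 56 and 50 in HgCl2, a log2 ratio of 2.70 (1.67 to 3.91).

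**Figure D4:**
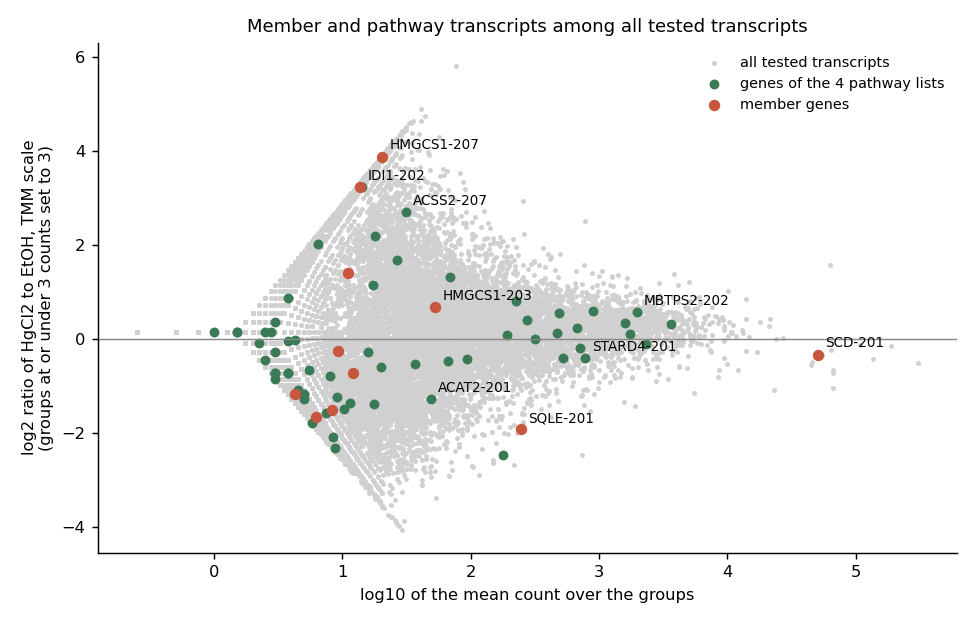
Log2 ratio of HgCl2 to EtOH on the TMM scale, where any group below 3 counts was raised to 3 (vertical axis), against log10 of the mean count over the groups (horizontal axis), for all 17547 tested transcripts (grey), the 4 pathway lists (green) and the 8 member genes (red). SQLE-201 lies near the lower edge of the well-counted transcripts, HMGCS1-207 and IDI1-202 lie high in the spread of thinly counted ones, and SCD-201 lies far right, just below 0.

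The promoters of the members are given because SREBP acts through them. RefSeq windows (GRCh38.p14) ran from 250 bases before to 50 bases after a start. Those of 5 of the 8 genes were used: HMGCS1, INSIG1, IDI1, SCD and SREBF2. No window of the other member genes was searched, so nothing is read about their promoters. Both strands were searched for the core of the sterol element, CACCCCAC, the E-box, CACGTG, the NF-Y box, CCAAT, and the GC box, GGGCGG. The 250 bases before the start are shown for SCD (chr10:100346983-100347232, plus strand), the member with the most counts. They are also shown for HMGCS1 (chr5:43313413-43313662, minus strand), whose counted transcripts went opposite ways. The last is SREBF2 (chr22:41832855-41833104, plus strand), the only one of the 5 genes with the sterol core. Capitals mark matches to any of these motifs on either strand, and the last GC box of SREBF2 overlaps the one before it and ends on the start base itself.
SCD: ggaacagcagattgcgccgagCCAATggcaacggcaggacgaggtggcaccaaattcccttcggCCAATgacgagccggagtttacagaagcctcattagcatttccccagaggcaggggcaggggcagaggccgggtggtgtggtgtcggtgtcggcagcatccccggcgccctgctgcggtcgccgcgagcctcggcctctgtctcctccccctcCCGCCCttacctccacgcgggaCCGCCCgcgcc
HMGCS1: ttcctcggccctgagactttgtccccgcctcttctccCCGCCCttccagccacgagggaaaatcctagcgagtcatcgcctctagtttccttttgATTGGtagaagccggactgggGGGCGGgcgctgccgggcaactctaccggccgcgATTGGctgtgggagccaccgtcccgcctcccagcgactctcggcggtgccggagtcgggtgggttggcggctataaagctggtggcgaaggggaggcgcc
SREBF2: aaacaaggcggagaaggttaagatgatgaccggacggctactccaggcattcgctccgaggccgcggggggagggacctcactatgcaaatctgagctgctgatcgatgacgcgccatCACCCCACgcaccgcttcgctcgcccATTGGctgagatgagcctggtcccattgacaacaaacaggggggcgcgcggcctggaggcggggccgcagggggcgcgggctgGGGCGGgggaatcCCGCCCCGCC
The sterol core of SREBF2 lies at -132 to -125 from the start, and 2.79% of all 35116 windows hold this motif. INSIG1 has the single E-box among the 5 genes, at -55 to -50, against 7.26% of all windows. An NF-Y box is in 6 of the 8 member windows, against 34.6% of all windows, and SCD has 2, at -229 to -225 and -186 to -182. A GC box is in every one of the 8 windows used, against 45% of all. The 8 windows belong to 5 genes, and several are of IDI1 or HMGCS1 and overlap in part. They are therefore not independent, and no excess over all windows is read from them. A match is a description of the letters, and binding was not measured.

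Marker genes were read for the line and the exposure. VIM had 620 and 628 counts in EtOH and 501 and 511 in HgCl2, KRT8 had 53 and 58 against 4 and 4, KRT18 had 23 and 24 against 18 and 31, NKX2-1 had 2 counts in all, and SFTPC and CDH1 were listed at 0 with own bases present. Of the genes of the response to metal, MT1X had 13 and 14 counts in EtOH against 4 and 3 in HgCl2. HMOX1 had 44 and 63 against 7 and 6. Each was counted through 1 of 4 listed transcripts, so the presence or absence of a metal response is not read from them. MT2A, which has no own base, was listed at 0. The part of these differences in the values of the members was not tested.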

How the data were processed

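RNA-seq of H1299 cells was analysed from the deposited tables of raw counts and FPKM values of the whole series. Per the labels and the methods, the authors made the counts with Trim Galore 0.6.5, STAR 2.5.4b (GRCh38) and Rsubread 2.0.1 on Ensembl 98 transcripts. The counting options, strand included, are not given in the sources used here. The authors derived the FPKM values from these counts with DESeq2 1.26.0.

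Columns were assigned to samples by group and replicate number. Transcript names, exons and own bases came from GENCODE 44 (GRCh38), which held 223558 of 227368 identifiers, and own bases were counted over both strands. Since transcripts with few own bases rarely carry counts, their values cannot be read as levels. Transcripts whose mean FPKM exceeded 1 in either group were tested in edgeR 4.0.16 (quasi-likelihood F-test, TMM scaling, R 4.3.3) with Benjamini-Hochberg adjustment. Alternatives used DESeq2 1.42.0, limma 3.58.1, other scalings and filters, a replicate block and each column left out. Other values were computed in Python 3.11.15 with numpy, pandas and scipy. The edgeR fit, the intervals and the column comparison were tested on simulated data.

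Where the columns of a group differ by less than counting noise, the plan takes edgeR calls to describe the libraries and not the conditions, and prints no p-value. The labels call the samples duplicates, and the study describes the libraries as coming from separate biological replicates. The counts were nevertheless taken as 1 sample a group, since the columns vary less than independent libraries would by counting alone. Named transcripts were the most counted of each member gene, those with a mean of at least 30 counts in a group, and those with the highest and lowest fold among means of at least 10. From the lists, the most counted transcript of each of the 3 most counted genes was named, with any transcript past 2-fold at a mean of at least 30 counts. Some items that this rule and the marker list cover are not reported here. The remaining counted member transcripts were given too, and SCDP1 was added after its values were seen. The members and lists were chosen with earlier results of these data known.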

Additional observations from a re-analysis of the deposited data

How the results depend on the processing

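Depth limits most member values, since 8 of the 11 tested transcripts had a mean under 30 counts. Requiring at least 10 counts in every column left 3 of them (HMGCS1-203, SQLE-201 and SCD-201), with 0 transcripts past both edgeR thresholds as higher and 1 as lower, and with 0 at least 2-fold higher and 1 at least 2-fold lower. A mean of at least 30 counts likewise gave 0 and 1. For the pathway lists these filters gave 3 higher and 2 lower, and 2 and 2, in place of 7 and 13. Leaving out each column in turn gave 1 to 1 transcripts past both edgeR thresholds as higher and 1 to 2 as lower, with the lone column assumed to vary like the other group. The replicate block gave 3 higher and 4 lower, against 2 and 3 without it. Deviations of same-numbered columns had a correlation of 0.0197 over 17547 transcripts. Since the columns of a group differ by less than counting noise, this cannot decide whether same-numbered columns belong together. DESeq2 gave 3 higher and 2 lower. No other listed setting moved the member counts by more than 1.5 times. The median log2 ratio of the tested members stayed below 0 under every setting run, between -0.66 and -0.15. SCD-201 lay at -0.29 with the RLE scaling, -0.38 with total counts and -0.15 on the FPKM scale, and SQLE-201 between -1.98 and -1.75 under all settings run. HMGCS1 summed over coding transcripts alone gave -2.32 in place of 0.83, and the IDI1 sum of 1.08 became 2.01 with coding transcripts and 3.82 with its most counted transcript alone, since fewer transcripts enter. No setting turned the sign of a member transcript for which the other scalings and the left-out columns were run. Single transcripts of the pathway lists were not followed across settings. Among them, FADS1-201 had mean FPKM of 104.8 in EtOH and 110.9 in HgCl2, the opposite direction to its TMM log2 ratio of -0.10. Requiring 10 counts in every column raised the share of higher transcripts among all past 2-fold from 43.4% to 60.3%, and a mean of 30 counts raised it to 62.0%.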
